A study of Mus musculus with 12 samples.

Results

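The pro-apoptotic arm of the BCL2 family was described here in mouse cumulus cells, the granulosa-derived cells that surround the oocyte in the antral follicle. The 10 genes were the effectors Bax, Bak1 and Bok and the BH3-only genes Bcl2l11, Bid, Bad, Bbc3, Pmaip1, Bmf and Bik, taken by symbol from 13318 genes in the RNA tables. All 10 were listed in at least 1 library, and 8 were listed in every library. Cells of Kunming mice treated with FSH and FBS over 18 hours gave 3 RNA libraries, and cells labelled as untreated, from the same strain, gave 3 more. FSH is follicle-stimulating hormone and FBS is fetal bovine serum. They were given together and the labels state no culture time for the untreated cells, so FSH, serum and time in culture cannot be told apart. The question of the study was which RNAs differ between cumulus cells that expand and cumulus cells that go into apoptosis. Its design text sets intact cumulus-oocyte complexes beside oocytectomized ones, and which of them gave each library is not in the labels.

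BAX, BAK and BOK are the family members that can open the outer mitochondrial membrane and let cytochrome c out. The BH3-only proteins carry a single BCL2 homology domain, relay particular kinds of stress, and act by binding survival proteins such as BCL-XL and MCL1 or by activating the effectors directly. In granulosa cells this pathway is known for its part in follicle loss, and FSH is known as a survival factor for them. Many of these proteins are controlled after translation, so a transcript level does not give the activity of the protein.

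The promoters of Bbc3 and Bmf are shown, the 2 BH3-only genes that differed most between the groups with libraries not rescaled. They are shown with that of Bcl2l11, which is known with them as a target of FOXO transcription factors. Sequences are from RefSeq (GRCm38.p6), 5′ to 3′, from 250 bases before to 50 after an annotated start, and 8 of the 10 members, with 14 such windows, were matched by symbol. Capitals mark the forkhead motif TGTTTAC on either strand. The 2 Bbc3 windows shown are for starts that lie 33 and 38 bases from a first exon in the tables, the Bcl2l11 start coincides with one in 1 library, and the Bmf start lies 1 base from one. The first exon near the second Bbc3 window is of a form ending at 16310538, which made at most 17.7% of Bbc3 first-exon FPKM in any library.
Bbc3, chr7:16309333-16309632, plus strand: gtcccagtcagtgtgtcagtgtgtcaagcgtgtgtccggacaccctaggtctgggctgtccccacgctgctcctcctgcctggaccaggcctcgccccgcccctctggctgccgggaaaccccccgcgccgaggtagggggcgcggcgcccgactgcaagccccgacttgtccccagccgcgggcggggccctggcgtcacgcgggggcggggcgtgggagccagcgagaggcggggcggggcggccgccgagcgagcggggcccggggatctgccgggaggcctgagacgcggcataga
Bbc3, chr7:16310011-16310310, plus strand: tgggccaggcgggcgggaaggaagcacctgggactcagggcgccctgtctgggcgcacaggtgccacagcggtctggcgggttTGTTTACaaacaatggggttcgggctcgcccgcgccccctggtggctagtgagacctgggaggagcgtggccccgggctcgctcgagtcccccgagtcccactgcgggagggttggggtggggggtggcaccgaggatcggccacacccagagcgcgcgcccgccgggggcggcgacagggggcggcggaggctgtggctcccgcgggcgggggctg
Bcl2l11, chr2:128125788-128126087, plus strand: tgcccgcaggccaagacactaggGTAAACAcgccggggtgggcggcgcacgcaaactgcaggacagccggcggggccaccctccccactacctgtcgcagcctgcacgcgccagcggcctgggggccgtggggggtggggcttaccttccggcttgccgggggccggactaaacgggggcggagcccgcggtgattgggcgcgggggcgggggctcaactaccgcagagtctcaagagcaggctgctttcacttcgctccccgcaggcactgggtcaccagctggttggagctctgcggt
Bmf, chr2:118549637-118549936, minus strand: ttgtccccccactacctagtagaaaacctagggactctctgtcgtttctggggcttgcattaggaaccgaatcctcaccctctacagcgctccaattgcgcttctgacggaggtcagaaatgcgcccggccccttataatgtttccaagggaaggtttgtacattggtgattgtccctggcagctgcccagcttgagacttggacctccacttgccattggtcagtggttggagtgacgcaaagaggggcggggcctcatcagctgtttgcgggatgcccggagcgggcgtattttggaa

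The forkhead letters began at position -167 in the second Bbc3 window and at -227 in the Bcl2l11 window, so 2 of the 14 windows of the members held them, as did 3.65% of 32851 promoters of the same length. The second window of Bcl2l11, whose start at 128127575 also lies in a listed first exon, and the third of Bbc3 held none. The Bmf window shown held none of the 4 motifs searched on both strands. The other 3 motifs were CACGTG, in 2 of the 14 windows (1 for Bax and the third for Bbc3) and 7.15% of all promoters, TGACGTCA, in 0 of the 14 windows and 1.79% of promoters, and TGATGNAA, in 0 of the 14 and 3.97%. The 2 Bbc3 windows were rich in G and C (76.0% and 74.7%), as was the Bcl2l11 window (71.0%), while the Bmf window had 55.3%, against a median of 52.7% over all promoters.

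Values are in FPKM (fragments per kilobase of transcript, scaled to the size of the library) from 1 deposited table per library. First-exon and last-exon FPKM were each summed per gene and the larger sum was taken as its value, and a gene absent from a table is called unlisted, since the tables hold no 0. The sequencing depth is unknown. Libraries 1 and 2 of a group were close, with 2.82% of 9022 genes more than 2-fold apart in FSH and FBS cells and 4.54% in untreated cells, against 15.9% to 22.9% for pairs with library 3. Libraries 1 and 2 were therefore averaged and counted as 1 sample, which leaves 2 samples per group. Nothing in the labels ties libraries to separate animals or cultures, and each p-value therefore reflects only how far these samples vary, which may be technical. The FPKM of all genes summed to 390966 in FSH and FBS library 3 and to between 264904 and 274530 in the other 5 libraries. Of 12 granulosa and cumulus markers, 10 or 11 were listed in each library, with Foxl2 unlisted in all 6. Being unlisted does not show that a gene was silent. Oocyte markers (15 genes) summed to 0.260, 0.157 and 12.8 FPKM in libraries 1 to 3 of FSH and FBS cells, with 1, 1 and 5 markers listed, and to between 13.9 and 18.6 in the untreated libraries, with 9, 9 and 7 listed. H1f8, 1 of the 15, matched no gene identifier and could not be listed. Zp2, Bmp15 and Figla were unlisted throughout. Gdf9 was listed in all 6 libraries, at 8.77 FPKM in FSH and FBS library 3 and 4.16 to 6.06 FPKM in untreated ones. Zp3, Oosp1 and Dppa3 were listed in every untreated library, and the last 2 also in FSH and FBS library 3. Theca and stroma markers summed to between 20.5 and 24.5 FPKM in libraries of FSH and FBS cells and to between 65.9 and 83.2 in untreated ones, mostly Acta2, with 2 to 5 of 8 listed and Pdgfra and Lum unlisted throughout. Tagln was listed in all 6 libraries, and Dcn in every untreated library and no other. Leukocyte markers summed to between 2.96 and 7.19 FPKM in FSH and FBS libraries and to between 8.97 and 12.6 FPKM in untreated ones, with 3 to 6 of 10 listed and Csf1r and Cd3e unlisted throughout. Lyz2, Tyrobp and Fcer1g were listed in all 6 libraries. Endothelial markers summed to between 2.58 and 3.37 FPKM after FSH and FBS and to at most 0.454 FPKM in untreated libraries, with 0 to 2 of 8 listed and Kdr and Tek unlisted throughout. Cdh5 was listed in every FSH and FBS library (2.06, 2.63 and 2.58 FPKM) and in no untreated one. The part of these cell types in the differences of the members was not tested. In whole-culture RNA, fewer cells of a type and less RNA per cell cannot be told apart.

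**Figure D1:**
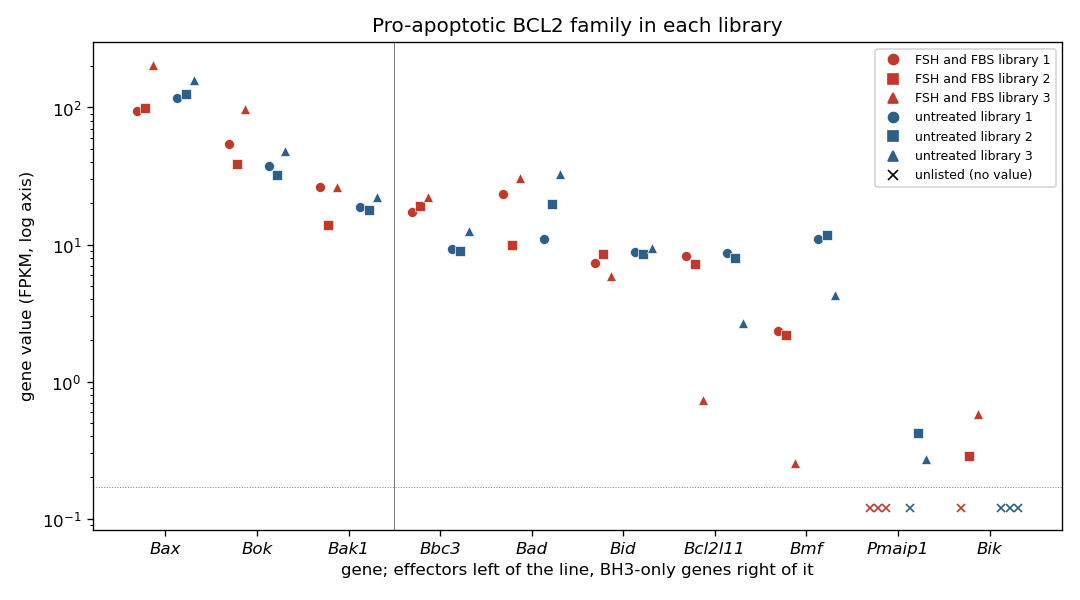
Gene values of the 10 members in each library (FPKM, log axis), FSH and FBS left of untreated for each gene, with crosses for libraries that do not list the gene. The Bbc3 points of FSH and FBS lie above all untreated points, the Bmf points lie below them, and Bax, Bok and Bak1 overlap.

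None of the 8 members tested passed the threshold between FSH and FBS and untreated cells. Bmf, a BH3-only gene, differed most of the 8 and was lower after FSH and FBS (log2 fold change -1.99). Bbc3, encoding PUMA, was next with libraries not rescaled and was higher by 0.85. By median of ratios Bcl2l11 (-0.78) and Bid (-0.61) differed more than Bbc3 (0.59). Equal sums gave the same order (-0.74, -0.63 and 0.56). Under quantile normalization Bcl2l11 (-0.66) differed more than Bbc3 (0.57), and Bid (-0.53) less. The summed BH3-only level was close in both groups with libraries not rescaled, and that closeness depends on scaling. The Bbc3 and Bmf shares of the sum differed. Bbc3 and Bmf were the 2 genes that differed most without rescaling, so their shares are a description with no test. The 3 effectors overlapped between the groups. The test was limma on log2(FPKM + 1), adjusted by Benjamini-Hochberg over the 9022 genes tested, of which 214 (2.37%) were called, 152 higher (1.68%) and 62 lower (0.687%). At an unadjusted limma p under 0.05 there were 2 of the 8 members, Bmf and Bbc3, and 1485 of the 9022 genes tested. With libraries rescaled there was 1 member, Bmf, beside 1064 genes with equal sums, 1330 by median of ratios and 1460 under quantile normalization. With the replicate number as a block limma called 1447 genes (16%), and Bmf was the 1 member called. With all 6 libraries as separate replicates, which treats libraries 1 and 2 as independent, limma called 1323 genes (14.7%) and 2 members, Bmf lower, as 3.88% of genes were, and Bbc3 higher, as 10.8% were. No member was called without untreated library 3 (0.814% of genes called), without FSH and FBS library 3 (4.1%) or with first-exon sums alone (0.793%). The log2 fold changes of all genes tested had a median of 0.24. With libraries rescaled by median of ratios that median was 0.00 and the calls (0.998% of genes) were 49 higher and 41 lower, and with equal sums they were 59 and 45.

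Bax encodes the effector that moves from the cytosol to mitochondria in apoptosis, and it was the most abundant member in every library. It stood at 94.0, 99.8 and 206 FPKM in libraries 1 to 3 of FSH and FBS cells, and at 117, 126 and 158 FPKM in untreated libraries. The groups overlapped, with FSH and FBS library 3 above and the other 2 below all untreated libraries. Its mean was 151 ± 76.8 FPKM after FSH and FBS and 139.65 ± 25.9 FPKM in untreated cells (SD, n = 2 samples each; log2 fold change 0.03, SE 0.47, limma adjusted p = 0.99). Without FSH and FBS library 3, the library with the highest summed FPKM, the log2 fold change was -0.51, and with libraries scaled to equal sums it was -0.28.

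Bok encodes an effector that BCL2 and its relatives restrain little and that is removed by ER-associated degradation. It stood at 54.4, 38.8 and 97.3 FPKM in libraries of FSH and FBS cells, and at 37.5, 32.3 and 48.2 FPKM in untreated ones. The groups overlapped through FSH and FBS library 2, and library 3 was the highest in each group. Its mean was 71.9 ± 35.8 FPKM after FSH and FBS and 41.6 ± 9.42 FPKM in untreated cells (SD, n = 2 samples each; log2 fold change 0.70, SE 0.44, limma adjusted p = 0.48). The log2 fold change was 0.18 without FSH and FBS library 3 and 0.40 with equal sums. Relative to Bax, Bok was higher after FSH and FBS, with Bok over Bax at 0.579, 0.389 and 0.473 in FSH and FBS libraries and at 0.321, 0.257 and 0.305 in untreated ones. That ratio does not depend on how libraries are scaled, and the groups did not overlap in it. It was picked after the values were seen and was not tested.

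Bak1, encoding the effector BAK, which resides in the mitochondrial membrane, stood at 26.3, 13.8 and 26.5 FPKM in libraries of FSH and FBS cells and at 18.6, 17.9 and 22.3 FPKM in untreated ones. FSH and FBS libraries 1 and 2 lay on either side of all untreated values. The log2 fold change was 0.18 (SE 0.35, limma adjusted p = 0.84), with a 95% interval of -0.63 to 0.99. Its sign turned under each of the 3 rescalings. In all 6 libraries the order of the effectors was Bax, Bok, Bak1. Bax made 53.8% to 65.5% of the effector sum in FSH and FBS libraries and 67.5% to 71.5% in untreated ones. Bax ranked between the 96.1 and 98.1 percentile of listed genes across libraries.

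**Figure D2:**
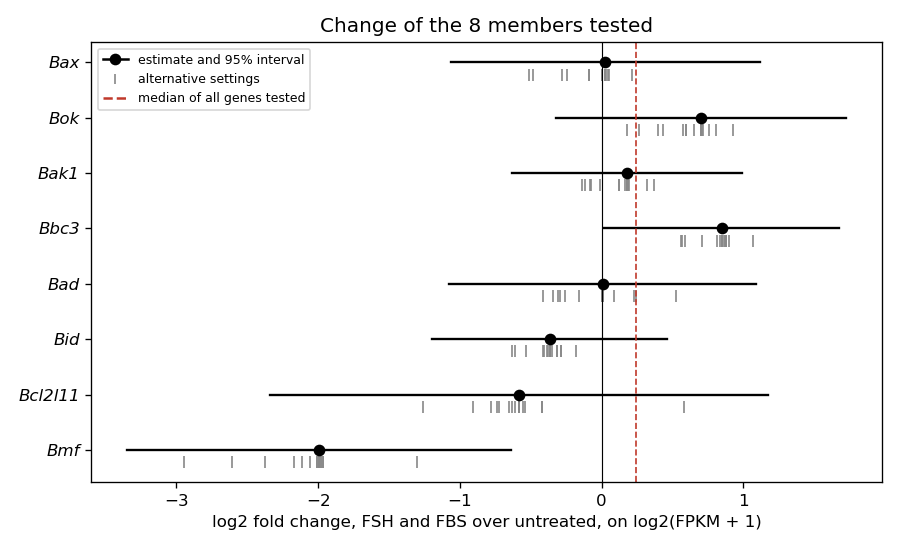
Log2 fold change of FSH and FBS over untreated cells for the 8 members tested, with its 95% interval (limma, n = 2 samples a group), and small ticks for the values under alternative settings. With libraries not rescaled, Bmf (-1.99) and Bbc3 (0.85) have intervals that leave out 0 before adjustment. The ticks of Bax, Bak1, Bad and Bcl2l11 fall on both sides of 0.

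Bmf encodes a BH3-only protein that is held at the actin cytoskeleton through dynein light chain 2 and is set free on loss of attachment. It stood at 2.35, 2.20 and 0.257 FPKM in libraries of FSH and FBS cells, and at 11.1, 11.6 and 4.29 FPKM in untreated ones. The groups did not overlap, although library 3 was the lowest in each. Its mean was 1.27 ± 1.43 FPKM after FSH and FBS and 7.82 ± 4.996 FPKM in untreated cells (SD, n = 2 samples each; log2 fold change -1.99, SE 0.59, limma adjusted p = 0.15). The unadjusted limma p was 0.0093 and the 95% interval ran from -3.35 to -0.64. Within libraries 1 and 2 the difference was -1.92 on the log2 scale and within library 3 it was -2.07, and with the replicate block the limma adjusted p was 0.00043. Without FSH and FBS library 3 the log2 fold change was -1.30, and without untreated library 3 it was -2.61.

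Bbc3 encodes PUMA, a BH3-only protein that binds all main survival members and is a p53 target also induced by FOXO factors and by CHOP. It stood at 17.4, 19.0 and 22.2 FPKM in libraries of FSH and FBS cells, and at 9.22, 8.96 and 12.7 FPKM in untreated ones. Every FSH and FBS library was above every untreated one. Its mean was 20.2 ± 2.87 FPKM after FSH and FBS and 10.9 ± 2.53 FPKM in untreated cells (SD, n = 2 samples each; log2 fold change 0.85, SE 0.36, limma adjusted p = 0.29). The unadjusted limma p was 0.046, and the 95% interval ran from 0.02 to 1.67. With libraries rescaled the unadjusted limma p was 0.14 by median of ratios, 0.18 with equal sums and 0.15 under quantile normalization. The log2 fold change lay 0.60 above the median of all genes, and was 0.59 under median-of-ratios scaling and 0.56 with equal sums. Whether a shift of all genes had a part in it was not tested. With the replicate block the limma adjusted p was 0.056.

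Together these 2 genes gave the clearest contrast within a library. Bbc3 over Bmf was 7.40, 8.63 and 86.7 in FSH and FBS libraries, and 0.834, 0.769 and 2.95 in untreated ones. The value of 86.7 rests on Bmf at 0.257 FPKM, near the floor at the 2.94 percentile of genes listed in FSH and FBS library 3. The Bbc3 over Bmf ratio is free of library scaling, and its groups did not overlap. It was picked for this difference, so it is a description with no test.

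Bid, which links death receptors to mitochondria once caspase-8 has cut it, stood at 7.28, 8.49 and 5.87 FPKM in libraries of FSH and FBS cells and at 8.90, 8.55 and 9.41 FPKM in untreated ones. The groups did not overlap, by a narrow margin between FSH and FBS library 2 and untreated library 2. The log2 fold change was -0.37 (SE 0.36, limma adjusted p = 0.66). Bcl2l11, encoding BIM, an activator of BAX and BAK under FOXO control, stood at 8.29, 7.18 and 0.741 FPKM in libraries of FSH and FBS cells and at 8.72, 7.93 and 2.66 FPKM in untreated ones. Within each group library 3 was far below the other 2, and the groups overlapped. The log2 fold change was -0.58 (SE 0.76, limma adjusted p = 0.75), and 0.58 without FSH and FBS library 3.

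Bad, a BH3-only gene whose protein is kept inactive by phosphorylation and 14-3-3 binding, stood at 23.4, 9.89 and 30.5 FPKM in libraries of FSH and FBS cells and at 11.0, 19.6 and 32.7 FPKM in untreated ones. It spread widely within both groups, libraries 1 and 2 included. The log2 fold change was 0.01 (SE 0.47, limma adjusted p = 0.995), and its interval of -1.08 to 1.09 leaves room for a 2-fold change either way. Pmaip1, encoding NOXA, was listed at 0.425 FPKM in untreated library 2 and 0.273 FPKM in untreated library 3, and was unlisted in the other 4 libraries. Bik, a BH3-only gene of the ER membrane, was listed at 0.285 FPKM in FSH and FBS library 2 and 0.582 FPKM in FSH and FBS library 3, and was otherwise unlisted. Neither was tested. Hrk, a further BH3-only gene best known in neurons, was unlisted in all 6 libraries.

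Without overlap between the 3 libraries of each group there were 3 of the 8 members tested (37.5%), Bbc3 higher and Bmf and Bid lower. Over all genes tested 38.9% did not overlap, 29.4% higher and 9.54% lower, so the share of members is near that of genes at large. The median log2 fold change was 0.18 over the 3 effectors and -0.37 over the 5 BH3-only genes tested, against 0.24 over all genes.

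**Figure D3:**
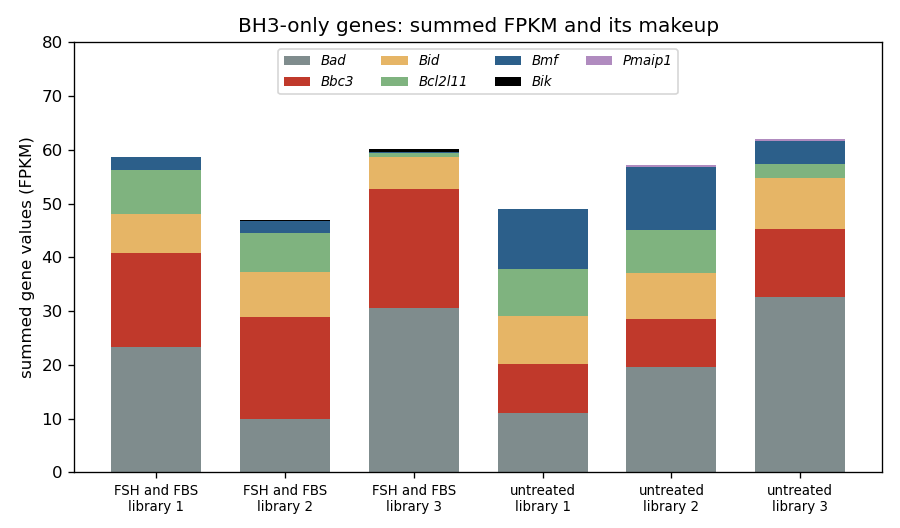
Summed FPKM of the BH3-only genes in each library, stacked by gene, with FSH and FBS libraries left of untreated ones. The bars reach 58.7, 47.0 and 60.2 FPKM in libraries of FSH and FBS cells and 48.9, 57.2 and 61.9 FPKM in untreated libraries, with a larger Bbc3 part and a smaller Bmf part after FSH and FBS.

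The BH3-only sum averaged 56.5 ± 5.19 FPKM after FSH and FBS and 57.5 ± 6.29 FPKM in untreated cells (SD, n = 2 samples each). Libraries were not rescaled for this sum, and neither the sum nor the shares in it were tested. All genes summed to 390966 FPKM in FSH and FBS library 3 and to at most 274530 FPKM elsewhere, so the closeness of the means depends on scaling. Bbc3 and Bmf shares within a library do not. Bbc3 made 29.6%, 40.3% and 36.9% of it in FSH and FBS libraries, and 18.8%, 15.7% and 20.4% in untreated ones. Bmf made 4.01%, 4.68% and 0.426% in FSH and FBS libraries, and 22.6%, 20.4% and 6.92% in untreated ones. Bmf was the most abundant BH3-only gene in untreated library 1, and last or next to last in each FSH and FBS library. Bad or Bbc3 led in the other 5 libraries.

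Of 8 genes for survival partners that the BH3-only proteins bind, Mcl1 and Bcl2l1 could be tested, and 0 were called. Mcl1, a short-lived survival protein's gene, stood at 49.1, 51.1 and 58.7 FPKM in libraries of FSH and FBS cells and at 40.5, 39.2 and 29.6 FPKM in untreated ones (log2 fold change 0.64, SE 0.36, limma adjusted p = 0.42). Bcl2l1, encoding BCL-XL, stood at 13.8, 12.5 and 14.8 FPKM in libraries of FSH and FBS cells and at 7.48, 7.49 and 11.9 FPKM in untreated ones (log2 fold change 0.51, SE 0.37, limma adjusted p = 0.55). In both genes the FSH and FBS libraries lay above the untreated ones without overlap, as in 29.4% of all genes tested. Libraries were not rescaled for this. Bcl2l10, which is abundant in oocytes, was unlisted in FSH and FBS library 1, at 0.0258 FPKM in library 2 and at 6.31 FPKM in library 3, and at 3.85, 3.50 and 5.39 FPKM in untreated libraries, low in the libraries where the oocyte markers were low. Bcl2 was listed in untreated library 3 alone, at 1.92 FPKM. Bcl2a1a was at most 0.365 FPKM where listed, and its reads may be shared with its near-identical copies. Bcl2l2, Bcl2a1b and Bcl2a1d were unlisted in all 6 libraries.

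The summed members over the summed survival partners gave 3.69, 3.12 and 4.87 in FSH and FBS libraries, against 4.28, 4.61 and 5.94 in untreated ones. The BH3-only sum alone over the survival partners was 0.929, 0.737 and 0.753 in FSH and FBS libraries, against 0.944, 1.13 and 1.27 in untreated ones. The first ratio overlapped between the groups, and the second did not, by a narrow margin between the 2 libraries numbered 1. Both sums leave out unlisted genes, and they are descriptions with no test.

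Downstream and upstream of the family no listed gene passed. Of 9 genes of the mitochondrial membrane and of proteins it releases, 9 were tested, 0 were called and all 9 had a positive log2 fold change, as did 67.2% of all genes tested. Their median was 0.48, and 8 of the 9 lay above the 0.24 of all genes, with Diablo below it. Aifm1, encoding apoptosis-inducing factor, which also serves the assembly of respiratory complexes, had a log2 fold change of 1.59 (SE 0.36, limma adjusted p = 0.068), Endog, a mitochondrial nuclease gene, 1.22 (limma adjusted p = 0.26) and Cycs, encoding cytochrome c, 0.76 (limma adjusted p = 0.35). Of 8 apoptosome and caspase genes 7 were tested and 0 called, with a median of 0.04. Casp6 and Casp2, caspase genes, had log2 fold changes of -0.62 and -0.51, and Xiap, a caspase inhibitor gene, 0.72 (limma adjusted p = 0.40, 0.60 and 0.63). Of 8 other genes related to BCL2 5 were tested and 0 called, with a median of 0.16, and Bcl2l13, Becn1 and Bnip3l had log2 fold changes of 0.45, 0.47 and -0.28 (limma adjusted p = 0.64, 0.66 and 0.75).

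Of 7 transcription factor genes known to act on the family 5 were tested and 0 called, with a median of 0.15. Foxo1, whose product induces Bcl2l11 and Bbc3 and is shut off by AKT, averaged 15.9 ± 4.42 FPKM after FSH and FBS and 38.7 ± 17.1 FPKM in untreated cells (SD, n = 2 samples each; log2 fold change -1.19, SE 0.42, limma adjusted p = 0.23). E2f1 and Ddit3, the gene of CHOP, had log2 fold changes of 0.80 and 0.72 (limma adjusted p = 0.35 and 0.41). Of 19 genes whose proteins hold, modify or degrade family members 19 were tested and 0 called, with a median of 0.24, the same as over all genes. Ppp3ca, of the phosphatase calcineurin that can dephosphorylate BAD, and Fbxw7, of a ubiquitin ligase subunit that targets MCL1, had log2 fold changes of 1.57 and 1.60 (limma adjusted p = 0.16 and 0.17). Dynll2, the dynein light chain that holds BMF, did not pass either (log2 fold change 0.34, limma adjusted p = 0.66).

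Library 3 stood apart within both groups, and the members did not follow it alike. On the log2 scale, the difference of library 3 from libraries 1 and 2 was -2.33 for Bcl2l11 in FSH and FBS cells and -1.35 in untreated cells. For Bmf it was -1.38 in FSH and FBS cells and -1.22 in untreated cells. These 2 of 8 members lay more than 1 below in both groups, as did 2.68% of all genes tested. Bax was 1.08 higher in library 3 of FSH and FBS cells and 0.38 higher in that of untreated cells, and Bok was higher by 1.05 in FSH and FBS cells and by 0.46 in untreated cells. Bad was higher by 0.84 in FSH and FBS cells and by 1.04 in untreated cells. The median over all genes was -0.03 in FSH and FBS cells and -0.21 in untreated cells. In 7 of 8 members the sign was the same in both groups, as it was in 67.7% of genes. Bid was the exception, at -0.37 in FSH and FBS cells and 0.10 in untreated cells.

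Positions of transcript forms are as the tables give them; their genome build is not given in the sources used here, and 99.06% of 12768 genes overlapped their GRCm38.p6 position. For Bax (chromosome 7, minus strand) the first exon listed, at 45466220 to 45466898, carried far less signal than the last exon, at 45461695 to 45461966. That first exon had 13.9 FPKM in FSH and FBS library 1 and 16.2 FPKM in library 2, was unlisted in library 3, and stood at 37.6, 38.7 and 44.6 FPKM in untreated libraries. In FSH and FBS libraries 1 and 2 both the first-exon and the last-exon signal thus lay below every untreated library. In FSH and FBS library 1 the tables also list 0.739 FPKM under the Bax identifier on the opposite strand, which was left out.

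Bbc3 (chromosome 7, plus strand) was listed with 5 first-exon forms across the libraries, not all in the same library, and with 1 last exon at 16317118 to 16318205. The form at 16309616 to 16309861 made 46.4%, 42.1% and 71.0% of first-exon FPKM in libraries of FSH and FBS cells, and 83.1%, 44.2% and 90.2% in untreated ones. The form at 16313517 to 16313817 made 49.0%, 49.4% and 2.12% in FSH and FBS libraries, and 1.81%, 38.4% and 1.16% in untreated ones. Untreated libraries 1 and 2, close in their gene values, thus differed widely in this split, and it followed neither the groups nor the library numbers. The last-exon sum, which does not depend on it, gave a Bbc3 log2 fold change of 0.88 (limma adjusted p = 0.24).

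Bcl2l11 (chromosome 2, plus strand) had 2 first exons, ending at 128126252 and at 128127812. The first made 72.3%, 83.7% and 100% of first-exon FPKM in libraries of FSH and FBS cells, and 60.9%, 74.2% and 28.2% in untreated ones. Its level in library 3 was alike in both groups, 0.741 FPKM after FSH and FBS and 0.750 FPKM in untreated cells. The second exon end accounted for the rest of untreated library 3, at 1.91 FPKM, and was unlisted in FSH and FBS library 3. The intron between 128128756 and 128128925 was retained in 64.8% and 67.2% of the paired signal in FSH and FBS libraries 1 and 2, and in 80.9%, 79.4% and 74.0% in untreated libraries, with no value in FSH and FBS library 3. No last exon of Bcl2l11 was listed in any library, so its gene value rests on first exons.

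**Figure D4:**
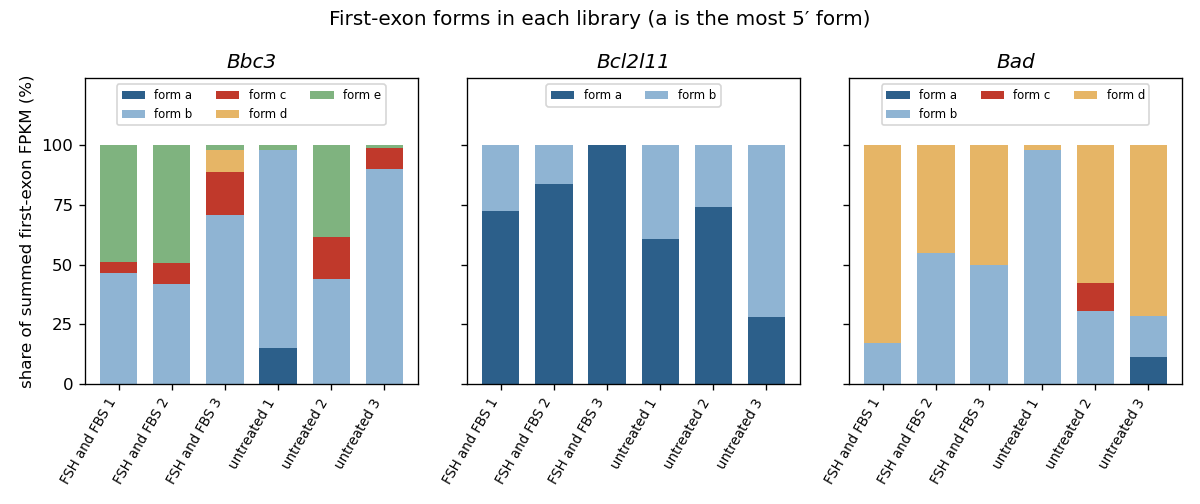
Share of each first-exon form in the summed first-exon FPKM of Bbc3, Bcl2l11 and Bad, with FSH and FBS libraries left of untreated ones and form a the most 5′. The Bbc3 form that makes 49.0% and 49.4% in FSH and FBS libraries 1 and 2 makes 38.4% in untreated library 2 and little elsewhere.

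Bad (chromosome 19, plus strand) had 2 main first exons whose split followed no order by group. The exon at 6942501 to 6942624 made 82.7%, 45.0% and 50.1% in FSH and FBS libraries, and 2.09%, 57.7% and 71.7% in untreated ones. The cassette exon at 6949699 to 6949846 was listed as included in FSH and FBS library 3 alone, at 12.8% of the paired signal. Bmf (chromosome 2, minus strand) used 1 first exon throughout, at 118549540 to 118549687. Its cassette exon at 118547294 to 118547370 was included in 1.09%, 1.37% and 2.58% of the signal in untreated libraries and unlisted in FSH and FBS libraries 1 and 2, while FSH and FBS library 3 listed only the form that includes it, at 0.257 FPKM. Bak1 and Bok each had 1 dominant first and last exon in every library.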

How the data were processed

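RNA of cumulus cells was sequenced in 3 FSH and FBS libraries and 3 untreated libraries; the small-RNA samples were not analysed here. The deposited tables give FPKM per transcript event, per the file headers, and the submitters' processing notes name HISAT2 2.0.1 as the aligner. Which assembler, filters and build were used is not given in the sources used here. Low FPKM values shared no common step, so reads could not be recovered.

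Events were summed per gene on the strand with most signal, and 13281 of 13318 gene identifiers matched a symbol. Of 9237 genes listed in all 6 libraries, the 9022 with a mean of at least 1 FPKM were tested with limma 3.58.1 in R 4.3.3, two-sided, with an intensity trend, a pseudocount of 1 and a threshold of 0.05, and the fit was tested on simulated data. A fold change on this scale understates that of low genes. Libraries 1 and 2 of each group were averaged. Members, lists and this design were chosen with earlier results of these data known. All members and survival partners were named, and of each other list up to 3 tested genes with the smallest adjusted p, 1 of which is not reported here; Dynll2 and Hrk were named after their values were seen.

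Same-numbered libraries deviated together (r over genes of 0.32, 0.31 and 0.51 for numbers 1, 2 and 3), where the numbers come from the titles. With libraries 1 and 2 averaged this pairing rests on 2 pairs. Numbers 1 and 2 crossed gave 0.31 and 0.33, so the values do not tell numbers 1 and 2 apart. Number 3 crossed with 1 or 2 gave -0.36 to -0.44.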

Additional observations from a re-analysis of the deposited data

How the results depend on the processing

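Under 15 settings other than leaving a library out, Bok, Bid, Bbc3, Bmf and Bcl2l11 kept their direction wherever they could be tested. The count of genes called, 214 as reported, was 63 with first-exon sums only, 104 with equal sums, 90 by median of ratios, 1323 with 6 separate libraries, 1447 with the replicate block and 2100 with both, and 75 to 384 with 1 library left out (75 without untreated library 3, 384 without FSH and FBS library 3). The share of calls that were higher was 71.0% as reported, 56.7% with equal sums, 54.4% by median of ratios and 56.5% under quantile normalization. The count of members called, 0 as reported, was 2 with 6 separate libraries, 1 with the replicate block and 2 with both. It was 0 to 0 with 1 library left out. The replicate block on the 4 samples changed no other member's call.

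Bax, Bak1, Bad and Bcl2l11 changed sign under some settings. With equal sums Bax was -0.28, Bak1 -0.11 and Bad -0.29. By median of ratios they were -0.245, -0.081 and -0.26. Under quantile normalization they were -0.48, -0.14 and -0.31. Bax was -0.0885 with 6 separate libraries, with and without the block. With 1 library left out the range was -0.51 to 0.22 for Bax, -0.0711 to 0.37 for Bak1, -0.41 to 0.53 for Bad and -1.26 to 0.58 for Bcl2l11, and it was -2.61 to -1.30 for Bmf, which was -2.95 with a pseudocount of 0.1. The cause of these changes was not tested. An arm left with 1 sample was assumed to vary like the other.

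Summing both strands and taking the largest single event, 2 settings added after the data were seen, called 0 members. Bax could not be tested with first-exon sums only, and Bcl2l11, Bid, Bad and Bmf could not with last-exon sums only. With 2 samples a group, intervals of the members span from -3.35 to 1.73 on the log2 scale, and a missed threshold does not show that a gene was alike in both groups.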
